A study of Rattus norvegicus with 8 samples.

Results

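The genes described here are 10 markers of eosinophils and mast cells: Rnase2, Rnase3 and Ccr3 for eosinophils, and Cpa3, Tpsb2, Tpsab1, Cma1, Ms4a2, Mcpt1 and Kit for mast cells. All 10 had a deposited value, among 12760 genes with one. The genes were chosen by their deposited levels over the same 8 arrays, the distal over proximal nerve ratio above all, so their levels and ratios are given as a description, with no test.

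Total RNA was hybridised to 8 one-colour Agilent arrays, 1 for each group. The nerve groups were the distal segment and the proximal segment of the left sciatic nerve on day 1 after it was cut through, and the contralateral right nerve of day 1, whose label also speaks of a PBS injection site. The cord groups were a spinal cord sample labelled dorsal hemisection and a C-level control, both of day 5, counted from an injection in the labels and from injury in the protocol. Each of these 5 samples was a pool of 3 adult female Sprague-Dawley rats of 200 to 225 g. The last 3 groups were primary Schwann cells, the glia of peripheral nerve, prepared from pups of postnatal day 1 to 3, used at passage 3 to 7 in medium with 4 µM forskolin and 10% serum, and over 99% pure by S100 staining per the labels. One culture had been given S100A8/A9, a calcium-binding protein pair of myeloid cells, for 1 h and another for 24 h, both at 5 µg/ml, and the unstimulated one was taken at 24 h. Since every group is 1 array, differences have no replicate check and carry no p-value. What C-level stands for is not given in the labels. Values after ± are technical errors, computed from replicate spots of the same probe on 1 array.

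Eosinophils and mast cells are granule-bearing leukocytes of allergic and parasite responses. Eosinophils are made in bone marrow, circulate, and enter tissue along gradients of eotaxin chemokines, which they sense through the receptor CCR3; their granules hold cytotoxic ribonucleases, peroxidase and major basic protein. Mast cells mature inside connective tissue, the nerve sheath included, depend on the growth factor receptor KIT, bind IgE through a receptor with the beta chain MS4A2, and store tryptases, chymases and a carboxypeptidase with heparin and histamine. In a sample of whole tissue fewer cells of a type and less RNA per cell cannot be told apart.

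Each gene was measured by 1 probe with a deposited value. Rnase2 (NM_001007015) had 10 spots, and Rnase3 (NM_138902), Ccr3 (NM_053958), Cpa3 (NM_019300), Tpsb2 (NM_019180), Tpsab1 (NM_019322), Cma1 (NM_013092), Ms4a2 (NM_012845), Mcpt1 (NM_172044) and Kit (NM_022264) had 2 each. No probe was saturated on any array. Rnase2 and Rnase3 are close relatives, and whether a probe of one binds the other was not tested, so they may not be 2 separate measurements. The upstream sequences of this pair are shown because they shared one order over the nerve samples. Those of Ccr3, Cpa3 and Cma1 are shown beside them as the chemokine receptor and the mast cell proteases with which they are contrasted. Each is the stretch of 250 bases before the transcript start in the RefSeq promoter table, 5′ to 3′, on build GRCr8, with letters in capitals where a GATA motif (the letters AGATAA or else AGATAG, and with T in first place TGATAA or else TGATAG, on either strand) was found.

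Rnase2, chr15:26923935-26924184, minus strand: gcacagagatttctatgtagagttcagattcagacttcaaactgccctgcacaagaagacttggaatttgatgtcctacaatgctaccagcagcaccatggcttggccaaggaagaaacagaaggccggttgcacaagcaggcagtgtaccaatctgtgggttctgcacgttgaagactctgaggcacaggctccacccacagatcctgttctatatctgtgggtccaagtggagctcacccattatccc

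Rnase3, chr15:26986270-26986519, minus strand: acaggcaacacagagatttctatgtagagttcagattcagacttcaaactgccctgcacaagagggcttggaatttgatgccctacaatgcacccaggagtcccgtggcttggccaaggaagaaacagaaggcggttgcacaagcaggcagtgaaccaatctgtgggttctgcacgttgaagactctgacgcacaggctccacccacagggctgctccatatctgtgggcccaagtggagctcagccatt

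Ccr3, chr8:132499999-132500248, plus strand: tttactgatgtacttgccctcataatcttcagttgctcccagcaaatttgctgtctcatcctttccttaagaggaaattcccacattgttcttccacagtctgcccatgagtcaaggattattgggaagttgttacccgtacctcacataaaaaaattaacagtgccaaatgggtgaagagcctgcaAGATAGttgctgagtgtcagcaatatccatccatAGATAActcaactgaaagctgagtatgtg

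Cpa3, chr2:104673238-104673487, minus strand: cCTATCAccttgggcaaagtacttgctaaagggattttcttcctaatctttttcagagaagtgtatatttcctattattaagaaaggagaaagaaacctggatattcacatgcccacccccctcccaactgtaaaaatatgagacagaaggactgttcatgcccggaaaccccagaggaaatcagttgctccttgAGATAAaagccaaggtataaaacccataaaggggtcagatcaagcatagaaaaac

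Cma1, chr15:33390134-33390383, minus strand: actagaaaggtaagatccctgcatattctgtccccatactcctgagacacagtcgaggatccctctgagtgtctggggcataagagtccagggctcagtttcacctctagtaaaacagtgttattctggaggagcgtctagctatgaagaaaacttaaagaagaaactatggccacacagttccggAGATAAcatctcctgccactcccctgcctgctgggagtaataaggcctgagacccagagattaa

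The upstream stretches of Rnase2 and Rnase3 aligned with 226 identical bases over 257 positions, or 87.9%. The neighbouring tryptase genes Tpsb2 and Tpsab1 had 55.7% and the chymase genes Cma1 and Mcpt1 52.8% in the same alignment. GATA factors are needed in both the eosinophil and the mast cell lineage. Of the 9 members in the table, all but Ms4a2, Ccr3 and Cpa3 held 2 GATA motifs each and Cma1 and Mcpt1 held 1 each, against 26.7% of 27457 rat promoters with at least 1 and 6.29% with 2 or more. Rnase2, Rnase3, Tpsb2, Tpsab1 and Kit held none in this window. The Ccr3 stretch lies inside the span of the gene (chr8:132463533-132511601), before an internal transcript start, and its 2 motifs rest on that start. The motif CACATG, searched on both strands because the mast cell factor MITF binds such letters, stood once in Cpa3 and once in Tpsb2 and in 11.7% of all promoters.

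Group names follow the column headings in the deposited value table. Scanner files of 7 of the 8 samples are recorded under another sample than the column they rank with, and each direction below rests on the headings. With the scans as recorded, Cpa3 stood 6.16 log2 units lower in the contralateral nerve than in unstimulated Schwann cells (-6.16), where the headings give 7.29. The tissue markers went with the headings: the neuronal gene Snap25 was at 12.45 and 14.80 in the cord samples and between 4.11 and 5.12 in the nerve samples, and the leukocyte gene Ptprc was between 9.07 and 12.61 in the 5 tissue samples but not well above background in any Schwann cell culture. They do not test labels within 1 tissue. Per array, 66.7% to 77.6% of the 30367 probes had a signal well above background.

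All 10 genes were well above background in all 3 nerve samples. In the dorsal hemisection cord 7 were, and in the C-level cord 3. In Schwann cells 2 were at 1 h and 3 at 24 h of S100A8/A9, against 4 in the unstimulated culture. The 3 eosinophil genes were not well above background in any culture, and the only member detected in all 8 samples was Kit.

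**Figure D1:**
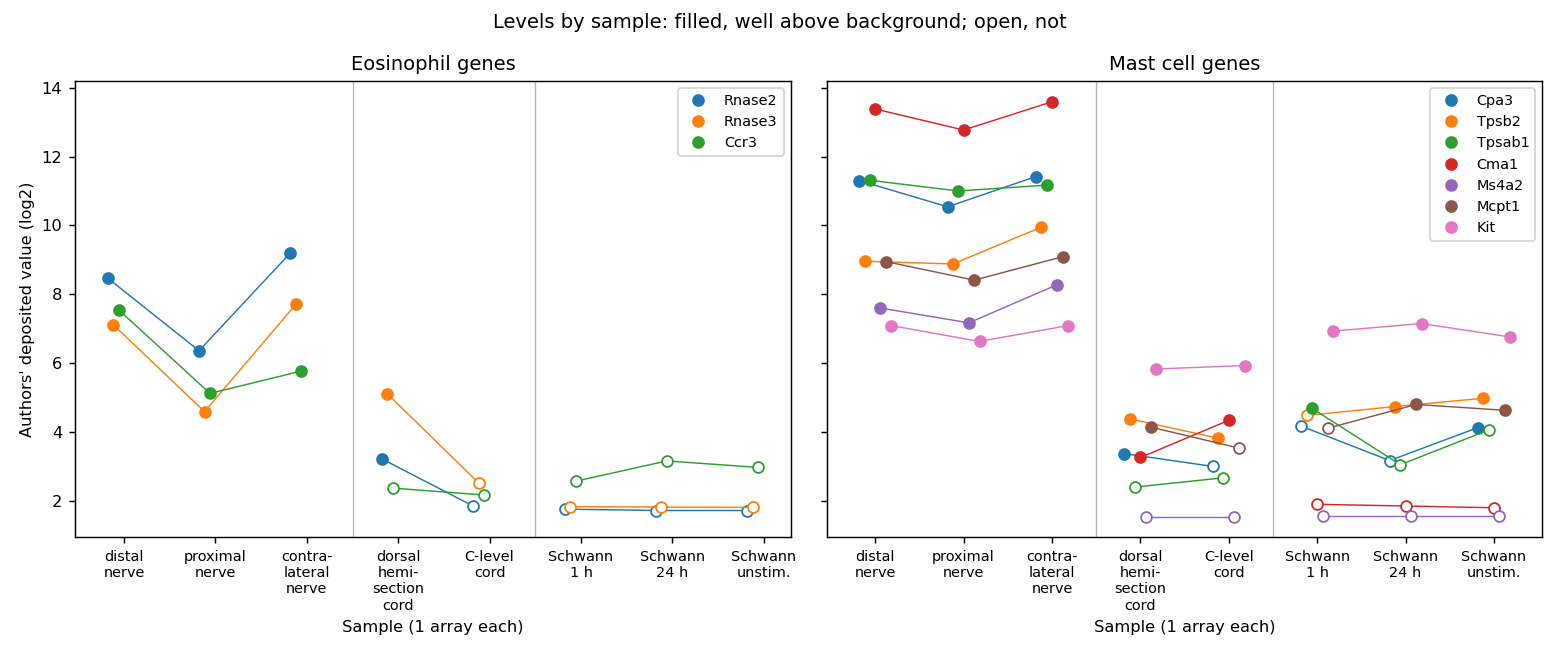
Deposited log2 value (vertical axis) of each eosinophil gene (left panel) and mast cell gene (right panel) in the 8 samples, 1 array each; filled points were well above background, open points were not, and lines join samples of 1 tissue. Rnase2 and Rnase3 dip in the proximal nerve, at 6.36 and 4.59, while mast cell genes other than Kit stand high in all 3 nerve samples and low elsewhere; heights are not comparable between genes.

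Among the eosinophil genes, the ribonuclease pair and the chemokine receptor behaved differently at the cut nerve. The pair was low in the proximal nerve and near the contralateral level in the distal nerve, while Ccr3 was highest in the distal nerve. Rnase2, a secreted ribonuclease of eosinophil granules, had a log2 value of 8.47 in the distal and 6.36 in the proximal nerve, against 9.20 in the contralateral nerve. Rnase3, the eosinophil cationic protein gene, was at 7.12 in the distal and 4.59 in the proximal nerve, against 7.71 in the contralateral nerve. For both ribonucleases the order was thus contralateral, distal, proximal, and the proximal nerve stood apart from the other two. Ccr3, the receptor for eotaxins, was at 7.55 in the distal and 5.12 in the proximal nerve, against 5.77 in the contralateral nerve. Its order was distal first, with the proximal and contralateral nerves close together.

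The replicate spots show the same pattern before any normalization between arrays. The spots of Rnase2 that were no outliers (10, 9 and 10 in the distal, proximal and contralateral nerve) had processed signals of 394 to 494 in the distal nerve and 85.2 to 103 in the proximal nerve, against 475 to 595 in the contralateral nerve. The proximal spots did not overlap those of either other nerve, and the distal and contralateral spots overlapped in this unscaled signal. As a percentage of the 75th percentile of their own array they did not overlap. The distal spots then lay at 22.2 to 27.8 and the contralateral spots at 34.3 to 42.9. The 2 spots of Rnase3 read 158 and 174 in the distal nerve, 27.0 and 33.5 in the proximal nerve, against 187 and 213 in the contralateral nerve. Those of Ccr3 read 214 and 234 in the distal nerve, 38.8 and 46.4 in the proximal nerve, against 54.5 and 57.9 in the contralateral nerve. For Ccr3 no nerve's spots overlapped those of another.

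**Figure D2:**
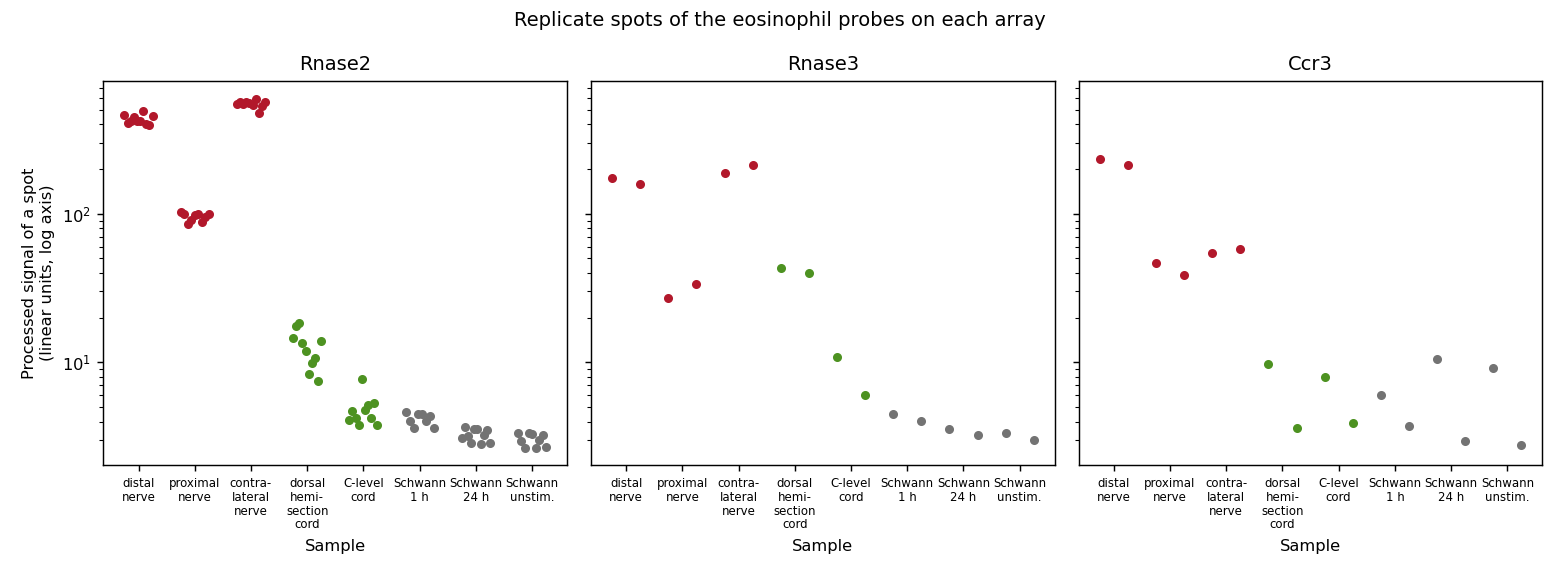
Processed signal of every replicate spot (vertical log axis, linear scanner units, not normalized between arrays) for the probes of Rnase2, Rnase3 and Ccr3 in the 8 samples; red, nerve; green, cord; grey, Schwann cells. Rnase2 spots lie at 85.2 to 103 in the proximal nerve and at 475 to 595 in the contralateral nerve, and Rnase3 spots at 39.9 to 43.2 in the dorsal hemisection cord against at most 10.8 in the C-level cord.

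In the distal over the contralateral nerve, Ccr3 had a log2 ratio of 1.78 ± 0.42, or 3.44-fold, and 1.00 with normexp background correction. Rnase2 was at -0.73 ± 0.06 and Rnase3 at -0.59 ± 0.12, both lower by less than 2-fold. So 1 of 3 eosinophil genes was at least 2-fold higher, where 13.5% of 12062 genes were, and none was at least 2-fold lower, where 14.4% were. The median of the 3 was -0.59, beside 0.01 over all genes. With Rnase2 and Rnase3 averaged and counted as 1 gene the median was 0.56. The sign of the median thus turned with the counting of the ribonuclease pair.

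In the proximal over the contralateral nerve all 3 ratios were negative. Rnase3 was at -3.12 ± 0.29, an 8.72-fold lower value, and Rnase2 at -2.84 ± 0.06, a 7.16-fold lower value. Of all genes 0.404% and 0.619% had a lower ratio than Rnase3 and Rnase2. Nothing is read from these shares, since the genes were chosen by their levels on these arrays. Ccr3 was at -0.64 ± 0.44, less than 2-fold apart. Thus 2 of 3 were at least 2-fold lower in the proximal nerve, where 12.0% of 12120 genes were, and none was higher, where 11.2% were. The median of -2.84 stood beside 0.00 over all genes. It was -1.46 with normexp and -1.81 with the pair as 1 gene. These 2 comparisons share the contralateral array.

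The distal nerve set directly against the proximal nerve had higher values of all 3 genes. The log2 ratio was 2.53 ± 0.29 for Rnase3, 2.43 ± 0.19 for Ccr3 and 2.11 ± 0.07 for Rnase2, which is 5.79-fold, 5.38-fold and 4.33-fold. Of all 12188 genes 1.24% were at least 2-fold higher and 1.94% lower, but this contrast served to choose the genes and nothing is read from the count. The median was 2.43, and 1.25 with normexp. Skeletal muscle markers moved the other way between the same arrays, with 12 of 12 below the proximal level by 2-fold or more (median -3.68) and creatine kinase Ckm at 8.54 in the distal and 12.23 in the proximal nerve. All 12 muscle markers were well above background in the proximal nerve and 11 in the distal nerve, and their part in the eosinophil values was not tested.

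The mast cell genes were flatter across the nerve. No gene was 2-fold apart in the distal nerve, and most were modestly lower in the proximal nerve. Cma1, the chymase of connective tissue mast cells, was at 13.38 in the distal and 12.77 in the proximal nerve, against 13.59 in the contralateral nerve. Cpa3, the mast cell carboxypeptidase, was at 11.30 in the distal and 10.54 in the proximal nerve, against 11.42 in the contralateral nerve. Both had their lowest nerve value proximally. Tpsab1, a tryptase, was at 11.31 in the distal and 11.00 in the proximal nerve, against 11.17 in the contralateral nerve. Tpsb2, the other tryptase, was at 8.96 and 8.88 in the distal and proximal nerve, against 9.95 in the contralateral nerve. The tryptases therefore differed, with Tpsab1 level and Tpsb2 lower in both cut segments.

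The chymase Mcpt1 was at 8.95 in the distal and 8.41 in the proximal nerve, against 9.09 in the contralateral nerve. Ms4a2, the IgE receptor chain, was at 7.60 in the distal and 7.17 in the proximal nerve, against 8.28 in the contralateral nerve. Kit was at 7.09 in the distal and 6.63 in the proximal nerve, against 7.09 in the contralateral nerve. Across the 3 nerve samples the mast cell genes spanned 0.31 to 1.11 log2 units each, while the eosinophil genes spanned 2.43 to 3.12. The genes were chosen by their levels on these arrays, so nothing is read from this difference.

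As ratios of distal over contralateral nerve, Tpsb2 was at -0.99 ± 0.08, Ms4a2 at -0.69 ± 0.13, and the other 5 mast cell genes lay between -0.21 and 0.13. The median was -0.14, and 0 of 7 were at least 2-fold higher or lower, where 13.5% and 14.4% of all genes were. In the proximal over the contralateral nerve Ms4a2 was at -1.11 ± 0.14 and Tpsb2 at -1.07 ± 0.08, so 2 of 7 were at least 2-fold lower beside the 12.0% of all genes. Both calls were close to the threshold: Tpsb2 was at -0.97 with 75th percentile scaling of the scans and -0.91 with normexp, and Ms4a2 at -0.87 with normexp. Cpa3 was at -0.88 ± 0.08, Cma1 at -0.82 ± 0.07, Mcpt1 at -0.68 ± 0.10, Kit at -0.46 ± 0.20 and Tpsab1 at -0.18 ± 0.08. All 7 ratios were negative here, with a median of -0.82. In the distal over the proximal nerve all 7 were positive and within 2-fold, from 0.08 ± 0.07 for Tpsb2 to 0.76 ± 0.06 for Cpa3 (median 0.46). Their highest ratio lay below the lowest of the eosinophil genes, 2.11, in that contrast, and the group medians differed by 1.97. That contrast served to choose the genes, so nothing is read from the gap.

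**Figure D3:**
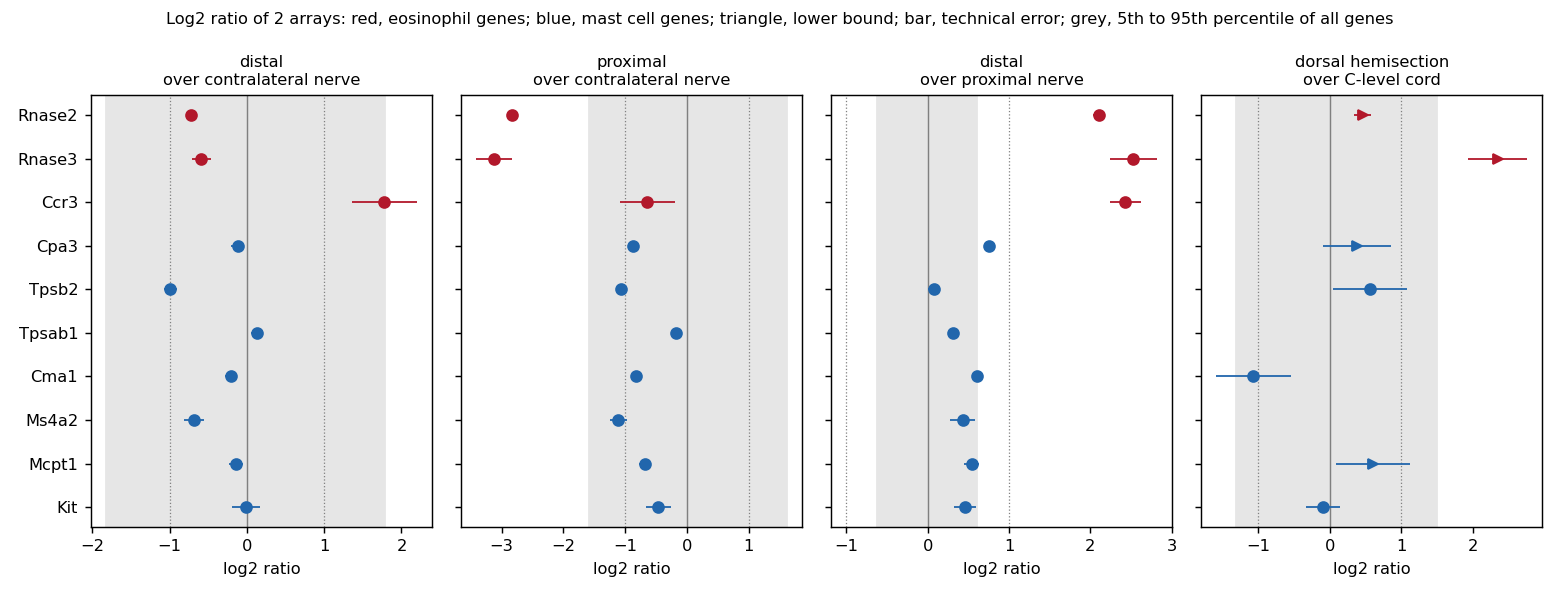
Log2 ratio (horizontal axis) of each gene in 4 comparisons of 2 arrays, eosinophil genes in red and mast cell genes in blue; bars are technical errors, triangles lower bounds, dotted lines mark 2-fold and the grey band runs from the 5th to the 95th percentile of all genes. The ribonucleases lie left of the band in the proximal over the contralateral nerve (-2.84 and -3.12), and Rnase3 lies right of it in the cord (at least 2.35).

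Of 11 markers shared by leukocytes 8 were at least 2-fold higher in the distal and 8 in the proximal nerve than in the contralateral nerve, with medians of 2.01 and 1.47, and Ptprc was at 12.61 and 12.03, against 10.56. Neutrophil markers had 9 of 13 at least 2-fold higher in the distal and 10 of 13 in the proximal nerve, with S100a8 at 13.06 and 13.61, against 5.73. Of macrophage markers 11 of 16 were at least 2-fold higher distally and 8 of 16 proximally (medians 1.81 and 1.06). Fibroblast and adipocyte markers ran lower: 4 of 11 were at least 2-fold lower distally and 9 of 11 proximally, none was higher, and the medians were -0.85 and -1.30. In the distal over the proximal nerve that list had a median of 0.11 and ran from -0.35 to 0.72, with 0 of 11 at least 2-fold higher or lower. Erythroid genes had 0 of 6 at least 2-fold apart in either comparison, and the haemoglobin gene Hbb lay between 17.74 and 17.85 in the nerve samples. Beside these counts, 13.5% of all genes were at least 2-fold higher and 14.4% lower distally, and 11.2% and 12.0% proximally. The part of these cell types in the values of the 10 genes was not tested.

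Other eosinophil genes did not share one pattern either. Of 21 listed, 17 had a value and 16 could be compared in the distal over the contralateral nerve. Of these 4 were at least 2-fold higher and 2 lower, beside 13.5% and 14.4% of all genes, with a median of 0.57. The higher ones were the ribonuclease Rnase6 (3.17 ± 0.41), which other myeloid cells express too, the granulocyte transcription factor Cebpe (2.91), the shared cytokine receptor chain Csf2rb (at least 1.89) and the leukotriene receptor Cysltr1 (at least 1.58). The lower ones were Epx, the eosinophil peroxidase (at most -2.08), and Siglec5 (-1.01). Epx was at 1.75 in the distal and 1.90 in the proximal nerve, not well above background in either, against 4.58 in the contralateral nerve. So the granule genes Epx, Rnase2 and Rnase3 each had their highest nerve value in the contralateral nerve. Prg2, the major basic protein gene, named after its values were seen, did not follow them, at 6.69 and 6.62 in the distal and proximal nerve, against 6.58. In Schwann cells Prg2 was at 6.84 and 6.74 with S100A8/A9 for 1 h and 24 h and 6.90 unstimulated. Its nerve values thus did not exceed those of the cultures.

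In the proximal over the contralateral nerve 3 of 16 other eosinophil genes were at least 2-fold higher and 3 lower (median 0.26). Of all genes 11.2% were higher and 12.0% lower. Siglec5 was at -2.06, Epx at most at -2.38, and the leukotriene synthase Ltc4s, named after its values were seen, at -1.89. These 3 had the same order as the ribonucleases in the proximal and contralateral nerve. The 3 higher genes, Cebpe (2.07), Rnase6 (1.85) and Csf2rb (at least 1.77), had the opposite order. In the distal over the proximal nerve 3 of 15 were at least 2-fold higher and none lower, beside 1.24% and 1.94% of all genes. The 3 were Rnase6 (1.31), Cysltr1 (1.10) and Siglec5 (1.05), and Ltc4s was at 0.95.

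A list of 17 genes held eosinophil attractants and survival factors and also the complement receptors C3ar1 and C5ar1, and 9 had a value. Ccl11, the gene of eotaxin, the main CCR3 ligand, was at 14.01 in the distal and 13.88 in the proximal nerve, against 13.00 in the contralateral nerve. Its log2 ratio was 1.01 distally and 0.88 proximally, and that of Ccl7, another CCR3 ligand that also draws monocytes, was 3.57 and 3.80. Both ligands were thus higher in both cut segments, whereas Ccr3 was higher in the distal one. Ccl24, eotaxin-2, was lower by 0.37 and 0.34 log2 units (-0.37 and -0.34). The complement receptors C3ar1 and C5ar1, found on many myeloid cells, were at 3.43 and 2.34 in the distal over the contralateral nerve. In all 4 of 8 measured were at least 2-fold higher distally (Ccl7, C3ar1, C5ar1 and, near the threshold, Ccl11). Proximally 3 were (Ccl7, C3ar1 and C5ar1). None was lower, and the medians were 0.99 and 0.87. Both counts thus include the receptors, which are not attractants. Of all genes 13.5% were higher distally and 11.2% proximally.

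Of 35 other mast cell genes listed, 24 had a value. In the distal over the contralateral nerve 7 of 24 were at least 2-fold higher and 5 lower (median -0.01). In the proximal nerve 4 of 23 were higher and 4 lower (median -0.27). Of all genes 13.5% were higher and 14.4% lower distally, and 11.2% and 12.0% proximally. The highest was Il1rl1, the interleukin 33 receptor, at 5.25 and 4.82, a gene that was also high in the Schwann cells (11.62 to 13.14). Fcer1g, an Fc receptor chain of many leukocytes, was at 1.88 and 1.15, and the channel subunit Kcne3 at 1.85 and 1.33. The lowest was Tpsg1, a membrane-anchored tryptase, at most -3.74 distally and -3.18 proximally, with a value of 6.87 in the contralateral nerve. Smaller ratios were found for other genes, named after their values were seen. Fcer1a, the IgE receptor alpha chain, was at 0.10 and -0.41, and Hdc, which makes histamine, at 0.62 and 0.43. The growth factor gene Kitlg was at -0.86 and -0.77, Tgfb1 at 0.98 and 0.74, and Il33 at -0.08 and 0.05, so 0 of 3 growth factors measured were 2-fold apart.

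Of 12 basophil genes listed 7 had a value, of which Cpa3, Ms4a2 and Fcer1a are also mast cell genes. Mcpt8, a granule protease that marks basophils in mouse, was at 10.44 in the distal and 10.56 in the proximal nerve, against 11.49 in the contralateral nerve, with log2 ratios of -1.04 and -0.93. Mcpt8l2 was at -0.96 and -1.07. Mcpt9 and Mcpt10, related proteases named after their values were seen, were at -1.06 and -1.03 distally and -1.02 and -0.91 proximally. These genes are close relatives, and whether a probe of one binds another was not tested. None of the 4 was over 2-fold apart between the distal and the proximal nerve (-0.12 to 0.12), the contrast by which the eosinophil genes were chosen.

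**Figure D4:**
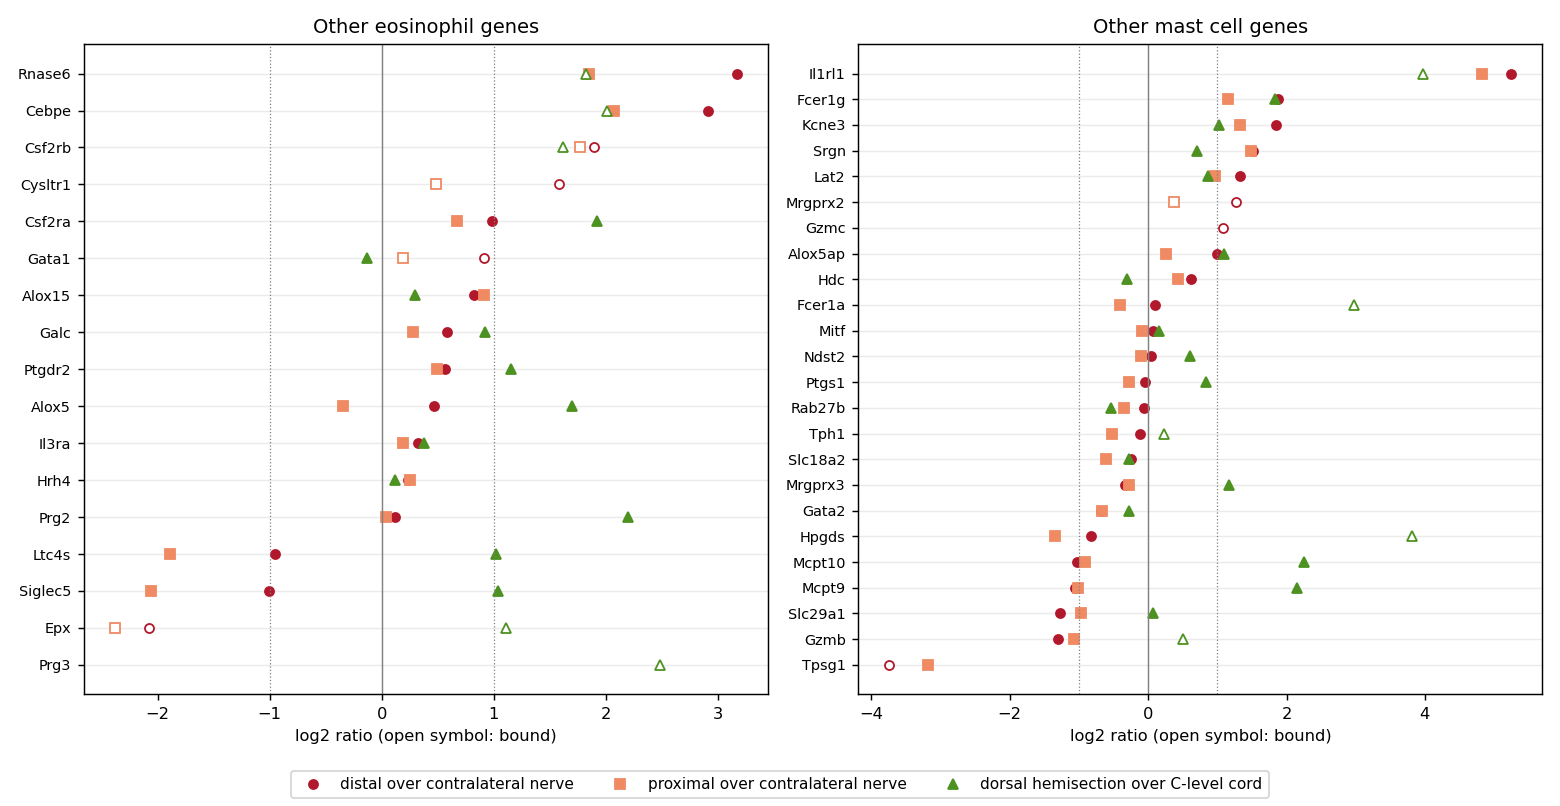
Log2 ratio (horizontal axis) of other eosinophil genes (left) and other mast cell genes (right) in the distal and proximal over the contralateral nerve and in the dorsal hemisection over the C-level cord; open symbols are bounds, dotted lines mark 2-fold, and a gene without a symbol was not measured in that comparison. Epx and Siglec5 lie left of 0 in both nerve comparisons and right of it in the cord, as do Mcpt9 and Mcpt10.

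In the spinal cord most of the mast cell genes were at or near background, while Rnase3 and other eosinophil granule genes were higher at the dorsal hemisection. Rnase3 was at 5.11 in the dorsal hemisection cord, against 2.52 in the C-level cord, where it was not well above background. Its log2 ratio was at least 2.35 ± 0.41, at least 5.10-fold, and 98.2% of genes had a lower ratio. Nothing is read from that share, since the genes were chosen by their levels on these arrays. Rnase2 was at 3.22, against 1.85 in the C-level cord, a ratio of at least 0.46 ± 0.12. Ccr3 was not well above background in either cord sample. Thus 1 of 2 eosinophil genes measured was at least 2-fold higher, where 10.2% of 12160 genes were, and the median of 1.41 was 0.26 with normexp, where Rnase3 was at 0.43.

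The ribonucleases also differed from each other between tissues. The contralateral nerve exceeded the dorsal hemisection cord by 5.98 log2 units for Rnase2 and by 2.60 for Rnase3. The gap was wider for Rnase2.

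Ms4a2 stood at 1.54 in both cord samples, and Tpsab1 at 2.40 in the dorsal hemisection and 2.67 in the C-level cord, none of them well above background. Cpa3 was at 3.37 and 3.00, Tpsb2 at 4.38 and 3.82, Mcpt1 at 4.14 and 3.53, and Kit at 5.83 and 5.93. Cma1 was the only one at least 2-fold apart, at 3.26 in the dorsal hemisection against 4.34 in the C-level cord (-1.07 ± 0.52), where 9.27% of all genes were at least 2-fold lower; it was at -0.15 with normexp. The 5 measured had a median of 0.38. The contralateral nerve over C-level cord ratio was 9.25 ± 0.45 for Cma1, at least 8.42 for Cpa3 and Tpsab1, 6.13 ± 0.45 for Tpsb2, at least 5.56 for Mcpt1 and at least 5.53 for Ms4a2. All 10 genes were at least 2-fold higher in the contralateral nerve, where 19.8% of 12187 genes were and 18.4% were lower, with Kit the least at 1.16 ± 0.26 and Ccr3 next at 3.01 or more. The count was 9 with 75th percentile scaling, where Kit was at 0.72, and 8 with normexp, where Kit was at 0.61 and Ccr3 at 0.70.

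Further genes of the eosinophil list were higher in the dorsal hemisection cord. Of 16 measured 11 were at least 2-fold higher and none lower, where 10.2% and 9.27% of all genes were. The median was 1.13, beside -0.04 over all genes. The 11 include genes not particular to eosinophils, such as Rnase6 (at least 1.82) and the shared receptor chain Csf2rb (at least 1.62). Those named here were chosen after their values were seen. Prg2 was at 10.42 in the dorsal hemisection cord against 8.22 in the C-level cord, a ratio of 2.20. Its relative Prg3 was at 5.23 against 2.49, at least 2.48, and was not well above background in any nerve or Schwann sample. Epx was at 3.86 against 2.21, at least 1.11. So 4 eosinophil granule genes (Rnase3, Prg2, Prg3 and Epx) were at least 2-fold higher at the dorsal hemisection. The granule gene Rnase2, at least 0.46, did not reach that call, and Rnase3 was at 0.43 with normexp. Prg2 exceeded its contralateral nerve value by 3.84 log2 units. The ligand Ccl7 was at 9.89 against 4.90 (4.99), and Ccl11 at 4.89 against 4.24 (0.64).

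Of 21 other mast cell genes measured in the cord 9 were at least 2-fold higher in the dorsal hemisection and none lower (median 0.84). Of all genes 10.2% were higher and 9.27% lower. Hpgds, the prostaglandin D synthase, was at 7.40 against 3.58 (at least 3.82), and Fcer1a at 5.72 against 1.84 (at least 2.97). The proteases Mcpt10 and Mcpt9 were at 2.25 and 2.15, and Mcpt8 at 1.82. Beside these, markers of other leukocytes were higher as well: 15 of 16 macrophage markers, 9 of 13 neutrophil markers and 10 of 11 general leukocyte markers were at least 2-fold higher. Their part in the cord values was not tested.

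The Schwann cell cultures served as samples without the leukocyte gene Ptprc, although 6 of 11 general leukocyte markers were well above background in each. Rnase2 was at 1.76 and 1.72 after 1 h and 24 h of S100A8/A9, against 1.72 in the unstimulated culture, Rnase3 at 1.83 and 1.82 against 1.81, and Ccr3 at 2.57 and 3.16 against 2.97. None of these was well above background. Cma1 and Ms4a2 were not either, between 1.80 and 1.90 and at 1.55. So 5 of the 10 genes were not detected in any culture. Cpa3, Tpsb2, Tpsab1 and Mcpt1 stood between 3.05 and 4.98 and crossed the background limit in some cultures only.

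At each time 4 of the 10 genes could be compared with the unstimulated culture, and 0 of 4 were at least 2-fold apart, where 1.70% and 1.35% of 10901 genes were higher and lower at 1 h, and 0.637% and 0.628% of 10993 at 24 h. Relative to the unstimulated culture the contralateral nerve was higher by at least 10.28 for Cma1, 7.29 ± 0.54 for Cpa3, at least 7.11 for Tpsab1, at least 5.88 for Rnase2, 4.97 ± 0.48 for Tpsb2, at least 4.97 for Ms4a2, 4.46 ± 0.48 for Mcpt1, at least 4.39 for Rnase3 and at least 2.45 for Ccr3. So 9 of 10 were at least 2-fold higher in the nerve, where 20.8% of 11915 genes were and 21.6% were lower. With normexp 8 were, and Ccr3 was at 0.70. The exception was Kit, at 6.93 and 7.15 in the stimulated cultures, against 6.76 in the unstimulated one, and its nerve over Schwann ratio was 0.33 ± 0.27. Kit was well above background in samples where Cma1 and Ms4a2 were not, so its level did not follow the mast cell genes across tissues.

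Cells other than mast cells express Kit, and 6 of 10 listed genes of such cells had a value. Tyrp1, a melanocyte enzyme, was at 10.37 and 11.61 in the stimulated cultures and 11.52 in the unstimulated one, and was not well above background in any tissue sample. Ano1 was at -1.82 and Etv1 at -1.11 in the distal over the contralateral nerve, Il7r at 1.38 and Cd34 at -0.35. Kit was 2-fold apart in 1 of the comparisons above, contralateral nerve over C-level cord, a call that did not hold with 75th percentile scaling or normexp.

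Among 10421 genes searched over the 8 samples, those whose values were most like the mean of the 3 eosinophil genes were Nck1 (Pearson r = 0.992), Galnt5 (0.988), Sft2d1 (0.984), Ncoa4 (0.982) and Tlr11 (0.981). Those most like Cpa3 were Gfpt2 (0.995), Trim14 (0.992), Or8b59 (0.989), Smagp (0.988) and Igsf9 (0.988). The samples share a tissue in groups, so such values mostly set the nerve apart from the rest. Within the nerve, the distal over proximal ratio of the first 5 was 0.40, 0.83, 0.32, 0.48 and 0.95. It was 2.11 or more for the eosinophil genes, which were chosen above all by that ratio.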

How the data were processed

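Total RNA was measured on 1-colour arrays. Spot intensity in the scanner files is linear and, per the file headers, was background-subtracted by version 10.7.3.1 of Feature Extraction; the notes of the submitters give 10.5. The authors' deposited log2 value table holds 24894 probes and 44 controls, with the median 8.03 in every column; its normalization is not stated in the sources at hand, its offset is unknown, and its slope on the log2 signal of the matched scan was 0.94 to 1.10. Other columns are flags of 0 or 1 per the file headers.

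Values were taken from that table by its headings. Each column matched 1 scan by rank (rho of at least 0.99978 over probes, and at most 0.993 for any other), from which flags and spot errors came. For the other 7 samples than the distal nerve it was recorded elsewhere, with rho of 0.802 to 0.900 to the recorded scan. Accessions were matched without versions to RefSeq symbols of GRCr8, while the headers name rn4: 17998 of 30367 probes matched, and 15207 of those with values. A gene took its probe with the highest mean. The lowest value among probes well above background served as floor for a value that was not, which gives bounds. A gene was compared if well above background on at least 1 of 2 arrays, and called at a 2-fold difference. The technical error pools the variance of replicate spots in 10 intensity classes per array, without outlier spots. Ratios and counts were checked on simulated data.

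Genes named beyond the 10 were, per list, up to 4 with the largest distal over contralateral ratio, those 2-fold lower there where a list held 4 or fewer, the 5 most alike and 5 markers of other cell types. Prg2, Prg3, Ltc4s, Fcer1a, Hdc, Hpgds, Mcpt9 and Mcpt10 fell outside this rule and were named after their values were seen. Cysltr1, Ccl24 and Tyrp1 fell outside it too. The members and lists were chosen with earlier results of these data known. The planned normexp used the spot median (gMedianSignal), since a mean signal is not in the files, with limma 3.58.1 and offset 50. Python 3.11.15 and pandas 2.3.3 were used. Alternatives were scaling of the matched scans to their 75th percentile, normexp, scans as recorded, the mean of probes, no floor, the ribonuclease pair as 1 gene, leaving out Kit, and other filters.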

Additional observations from a re-analysis of the deposited data

Results flagged for a closer look

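Injury and control samples differed in opposite directions in nerve and cord for both ribonucleases, by ratios more than 2 technical errors from 0. These errors come from replicate spots within each array and do not cover differences between arrays or animals. Rnase3 was at least 2.35 in the dorsal hemisection over the C-level cord but -0.59 in the distal and -3.12 in the proximal over the contralateral nerve, differences of at least 2.94 and at least 5.47. Rnase2 was at least 0.46 in the cord but -0.73 and -2.84 in the nerve, differences of at least 1.19 and at least 3.30. The difference was not tested, since each group had 1 array, and day, tissue and operation differ between the contrasts. With normexp the cord ratios were 0.43 for Rnase3 and 0.08 for Rnase2.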

How the results depend on the processing

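The medians of the 7 mast cell genes and 3 eosinophil genes kept their sign under the mean of probes, no floor, leaving out Kit, 75th percentile scaling and normexp. With normexp the eosinophil median was -0.38 in the distal and -1.46 in the proximal over the contralateral nerve, 1.25 in the distal over the proximal nerve and 0.26 in the cord, and the mast cell median 0.33 in the distal over the proximal nerve. With 75th percentile scaling the distal over proximal medians were 2.22 for eosinophil and 0.34 for mast cell genes, the proximal over contralateral mast cell median -0.66, and 1 gene was 2-fold apart after 1 h of S100A8/A9. The ribonucleases as 1 gene gave 0.56 distally and -1.81 proximally, and no floor gave 1.98 in the cord. The cause of these shifts was not tested. With scans as recorded, eosinophil medians were 4.16, -1.62 and 4.22 in the distal over contralateral, proximal over contralateral and distal over proximal nerve, and mast cell medians 4.21 and 5.62 in the first and last. The genes 2-fold apart then numbered 2 for contralateral nerve over C-level cord, and 3 and 9 at 1 h and 24 h of S100A8/A9. Kit was then at -0.40 in contralateral nerve over C-level cord. In contralateral nerve over unstimulated Schwann cells Rnase2 was at -2.42, Ccr3 -1.93, Cpa3 -6.16, Tpsb2 -3.78, Tpsab1 -7.59, Cma1 -8.70, Ms4a2 -3.89 and Mcpt1 -3.58. With normexp the counts over all genes at least 2-fold higher and lower were 1015 and 985 against 1629 and 1735 (distal over contralateral), 829 and 784 against 1362 and 1450 (proximal over contralateral), 26 and 89 against 151 and 237 (distal over proximal) and 729 and 544 against 1244 and 1127 (cord). In contralateral nerve over C-level cord 1494 against 2416 were higher, in contralateral nerve over Schwann cells 1700 against 2572 were lower, and S100A8/A9 gave 43 and 50 against 185 and 147 at 1 h and 6 and 10 against 70 and 69 at 24 h. The distal over proximal count of higher genes was 85 with 75th percentile scaling, and that of lower genes at 1 h 234. With both arrays required above background, 24 h gave 19 and 22, and 1548 genes were higher in nerve than in Schwann cells, against 2481; without a filter 1 h gave 315 and 320 and 24 h 179 and 197. Scans as recorded gave 3557 lower (proximal over contralateral), 2554 and 1829 (distal over proximal), 99 and 84 (cord), 1253 and 1427 (1 h), 2621 and 2532 (24 h) and 1573 lower (nerve over Schwann cells). Against C-level cord, 75th percentile scaling moved the median of all genes in the contralateral nerve by -0.17, and against Schwann cells scans as recorded moved it by 0.20. No paired analysis was possible because each group is 1 array and the labels give no replicate numbers.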
